A study of Homo sapiens with 4 samples.

Results

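Promoter-promoter loops joining different genes are RNAPII-associated loops in which both ends carry a gene promoter and at least 1 gene at one end is missing from the other. A loop was taken as a member when each anchor came within 1 kb of a transcription start site (TSS), taken from any transcript of a protein-coding gene, and the genes at both anchors were not the same set. Of the 77862 loops listed in either condition, 5642 were members. The mock list held 5041 of them (7.59% of its 66417 loops), and the PDS list held 1142 (6.08% of its 18778 loops). POLR2A HiChIP-seq, which ligates DNA ends that lie close together in fixed chromatin and then enriches fragments with an antibody to the largest subunit of RNAPII, had been carried out in HepG2, a human hepatocellular carcinoma cell line. The cells of the mock condition received sterilized water and those of the other condition 20 µM pyridostatin (PDS), a small-molecule ligand of guanine quadruplexes (G4s), both for 24 h before fixation and digestion with MboI. Each condition had 2 replicates, deposited as 1 combined list, so there was no spread between replicates to compare with and no p-value is given between conditions. The size of each loop is its number of paired-end tags (PETs), at least 3 in a listed loop.

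A promoter is the stretch of DNA around a start site on which RNAPII assembles. Promoters of active genes are often found close to each other in the nucleus, both as neighbours along the chromosome and in hubs where RNAPII, Mediator and transcription factors are concentrated. G4s are four-stranded structures of guanine-rich DNA, and sequences able to form them are common at promoters.

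The sequences of 3 promoter pairs are shown first, as mock members with many PETs, with and without G4 motifs near the start site. A G4 motif was counted where 4 runs, each of 3 or more G, were separated by 1 to 7 bases on one of the strands. Each sequence is the 250 bases before the RefSeq start site of the gene (GRCh38.p14), in the direction of transcription, with motif matches in capitals, and each lies inside the anchor of the loop described. POP7 encodes a subunit of ribonucleases P and MRP, and EPO encodes the hormone erythropoietin. MRGBP encodes a subunit of a histone acetyltransferase complex, and OGFR encodes the opioid growth factor receptor. ALB and AFP encode albumin and alpha-fetoprotein, a pair of related plasma proteins.
POP7, chr7:100705871-100706120, plus strand: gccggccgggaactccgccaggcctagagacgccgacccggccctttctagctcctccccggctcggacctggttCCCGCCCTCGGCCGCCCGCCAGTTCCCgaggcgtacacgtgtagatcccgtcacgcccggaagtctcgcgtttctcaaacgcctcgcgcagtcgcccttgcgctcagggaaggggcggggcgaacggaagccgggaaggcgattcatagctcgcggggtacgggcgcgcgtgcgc
EPO, chr7:100720218-100720467, plus strand: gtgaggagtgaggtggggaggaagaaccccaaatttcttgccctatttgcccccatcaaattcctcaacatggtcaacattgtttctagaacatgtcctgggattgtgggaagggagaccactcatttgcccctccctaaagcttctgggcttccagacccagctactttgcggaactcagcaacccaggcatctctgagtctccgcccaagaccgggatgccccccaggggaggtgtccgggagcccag
MRGBP, chr20:62796223-62796472, plus strand: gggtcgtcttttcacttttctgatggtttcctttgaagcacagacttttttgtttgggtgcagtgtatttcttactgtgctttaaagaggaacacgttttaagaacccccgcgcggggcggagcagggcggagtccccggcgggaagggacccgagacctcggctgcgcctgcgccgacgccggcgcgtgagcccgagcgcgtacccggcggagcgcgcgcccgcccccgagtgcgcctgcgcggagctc
OGFR, chr20:62804585-62804834, plus strand: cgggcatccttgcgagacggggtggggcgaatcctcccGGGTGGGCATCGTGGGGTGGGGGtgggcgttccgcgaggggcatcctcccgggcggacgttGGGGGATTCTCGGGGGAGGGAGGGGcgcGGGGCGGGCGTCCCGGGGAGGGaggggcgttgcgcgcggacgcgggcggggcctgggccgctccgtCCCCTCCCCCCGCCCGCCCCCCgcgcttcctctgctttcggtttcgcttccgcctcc
ALB, chr4:73404037-73404286, plus strand: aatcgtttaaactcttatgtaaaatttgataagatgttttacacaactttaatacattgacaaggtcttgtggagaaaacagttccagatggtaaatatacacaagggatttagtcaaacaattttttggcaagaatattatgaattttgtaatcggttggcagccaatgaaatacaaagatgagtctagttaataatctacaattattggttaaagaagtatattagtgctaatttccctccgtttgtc
AFP, chr4:73435971-73436220, plus strand: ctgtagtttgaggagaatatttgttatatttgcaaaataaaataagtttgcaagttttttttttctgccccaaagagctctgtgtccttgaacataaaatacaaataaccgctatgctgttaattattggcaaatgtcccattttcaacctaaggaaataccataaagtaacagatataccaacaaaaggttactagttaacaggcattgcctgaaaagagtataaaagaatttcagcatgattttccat
The loop from POP7 to EPO had 12 PETs in the mock list and was not listed after PDS. The loop from MRGBP to OGFR had 14 PETs in the mock list and 3 in the PDS list. The strongest loop from ALB to AFP had 11 PETs in the mock list and was not listed after PDS. The POP7 window held 1 match to the motif, on the strand opposite to transcription, and the EPO window held 0. The OGFR window held 4 matches and was 78.0% G and C, against 0 matches and 64.4% in the MRGBP window. Counts of 0 apply to these windows only. Within 500 bp of the canonical start, EPO and MRGBP each had a motif, as did both anchors of their loops. The ALB and AFP windows were 30.0% and 31.6% G and C and held no match, nor did the whole anchors of that loop. A match to the motif was found in the same 250 bases of 23.4% of all 34943 RefSeq promoters and of 29.0% of the 21479 promoters of protein-coding genes. It was found in 31.2% of the 7482 promoters that matched by symbol to member genes (5227 of 6875 gene symbols had an entry).

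Members were fewer in the PDS list, as were loops of the other classes. The PDS/mock ratio of member numbers was 0.227 (95% interval 0.212 to 0.242). It was 0.156 for members with at least 4 PETs (2138 in mock, 333 in PDS), 0.113 for those with at least 5 (1044 and 118) and 0.0366 for those with at least 10 (82 and 3, interval 0.0122 to 0.110). Promoter-distal loops, which had a promoter at 1 anchor, also went down with the minimum, from 0.255 to 0.175, 0.124 and 0.0394. In PETs, the members summed to 19737 in the mock list and 3971 in the PDS list, a ratio of 0.201. The mean was 3.92 PETs per mock member and 3.48 per PDS member, and 57.6% and 70.8% of members had 3 PETs. The highest counts were 19 in the mock list and 11 in the PDS list. How deeply each library was sequenced is unknown here, so fewer contacts and fewer sequenced PETs cannot be told apart, and the intervals cover counting error only.

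Members were a smaller part of the PDS list than of the mock list, so the other loop classes were set beside them. The ratio was 0.255 (0.248 to 0.262) for the 25399 promoter-distal loops. It was 0.292 (0.272 to 0.314) for the 3909 loops with the same genes at both promoter anchors, and 0.307 (0.300 to 0.313) for the 42912 loops with no promoter anchor. The ratio of the members over that of promoter-distal loops was 0.889 (0.828 to 0.954), and 0.893 (0.831 to 0.959) when compared within distance classes. Over loops with no promoter anchor it was 0.738 (0.690 to 0.790). HepG2 carries extra copies of all or part of chromosomes 2, 6, 14, 16, 17 and 20, which held 50.4% of mock members, 55.2% of all mock loops and 27.5% of protein-coding genes. On those 6 chromosomes the PDS/mock ratio of members was 0.251 (0.230 to 0.274), and on the others it was 0.201 (0.183 to 0.222), where all loops had 0.319 (0.312 to 0.326) and 0.238 (0.232 to 0.244). The members' ratio lay below that of promoter-distal loops in both, at 0.886 (0.806 to 0.975) of it on the 6 chromosomes and 0.899 (0.809 to 0.999) on the others.

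**Figure D1:**
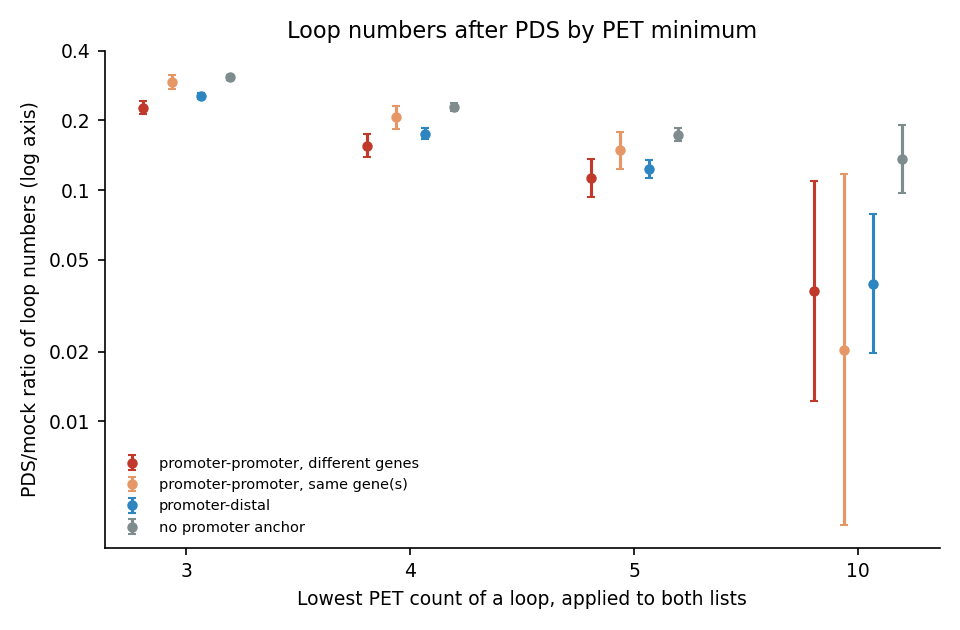
PDS/mock ratio of loop numbers (log axis) by the lowest PET count applied to both lists, for the members and 3 other loop classes, with 95% intervals from counting error. The members' ratio went from 0.227 at 3 PETs to 0.0366 at 10 PETs and lay below that of loops with no promoter anchor at every minimum.

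Few mock members were found again in the PDS list. With identical anchors required, 541 members were in both lists, 10.7% (9.91 to 11.6) of the mock members, where 11.0% of all mock loops were listed after PDS. They were 47.4% (44.5 to 50.3) of the PDS members, where 39.1% of all PDS loops were also in the mock list. The share rose with PETs in the mock list. Among members it was 4.93% of the 2903 members with 3 PETs, 9.78% of the 1094 with 4, 17.7% of the 485 with 5, 31.7% of the 477 with 6 to 9 and 65.9% (55.1 to 75.2) of the 82 with 10 or more. At equal PETs and distance, members and promoter-distal loops were listed again about equally often, with a Mantel-Haenszel ratio of shares of 1.01 (0.929 to 1.10). When anchors extended by 5 kb were allowed to match, it was 0.933 (0.884 to 0.985). Against loops with the same genes at both anchors the ratio was 0.886 (0.793 to 0.990), and against loops with no promoter anchor it was 0.922 (0.850 to 0.999). In all, 28 of the 82 strongest mock members (34.1%) were missing from the PDS list, where 37.4% of all mock loops with 10 or more PETs were missing.

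**Figure D2:**
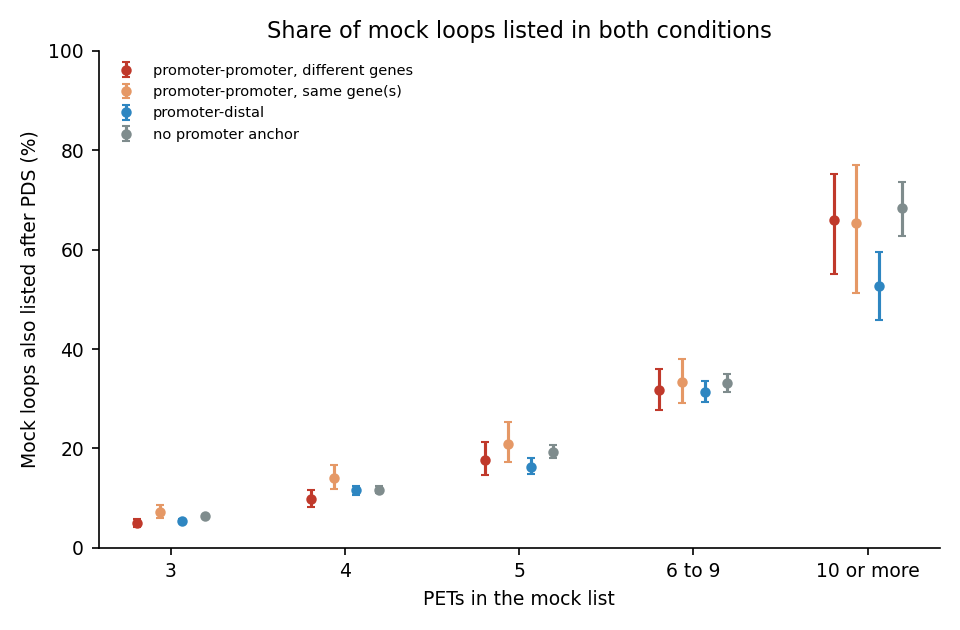
Share of mock loops also listed after PDS (percent) by their PETs in the mock list, for the members and 3 other loop classes, with 95% Wilson intervals. In each class the share was lowest at 3 PETs, and for the members it reached 65.9% at 10 or more PETs.

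Members in both lists mostly had fewer PETs after PDS. Of the 541, 339 had fewer PETs in the PDS list, 143 had the same number and 59 (10.9%) had more, where 14.6% of all loops in both lists had more. A member with 3 mock PETs cannot be lower and stay listed, which held for 143 of them. To allow for this minimum, the PDS/mock factor of the PETs, which includes any difference in sequencing depth, was estimated from the split of the summed PETs (7 to 19) of each shared loop. It was 0.404 (0.364 to 0.447) over 432 members and 0.473 (0.450 to 0.497) for promoter-distal loops, a ratio of 0.854 (0.762 to 0.957). That difference was seen on the 6 chromosomes, at 0.817 (0.711 to 0.939), while on the others the ratio was 0.940 with an interval that included 1 (0.768 to 1.15).

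**Figure D3:**
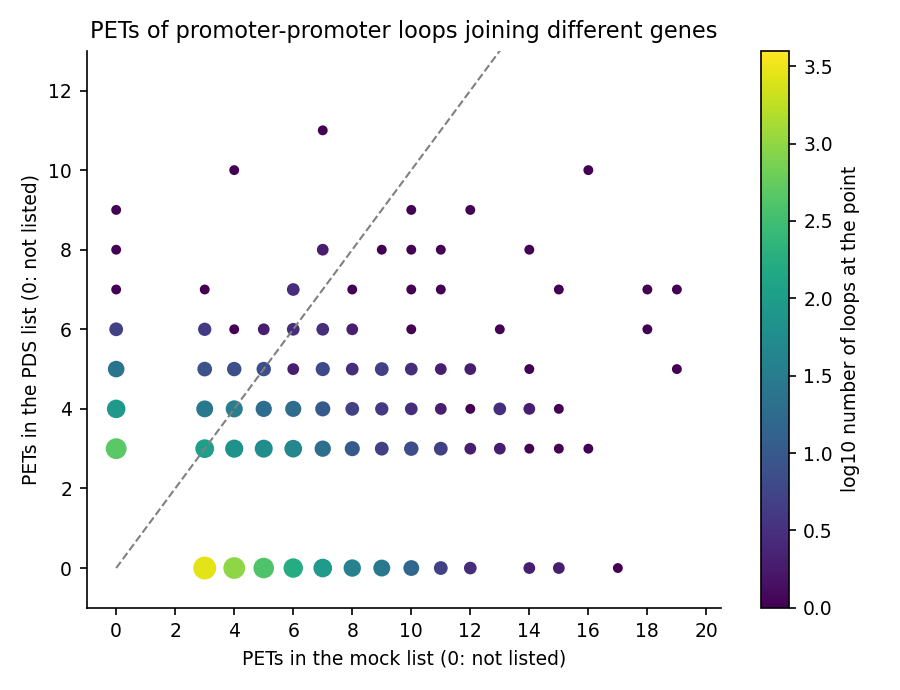
PETs of each member in the mock list (horizontal axis) and the PDS list (vertical axis), where 0 means not listed and the dashed line marks equal counts. Size and colour of a point give the number of loops on a log10 scale. Most of the 5642 members lie on the horizontal axis, not listed after PDS, and 59 of the 541 shared members lie above the line.

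The strongest members of the mock list had fewer PETs or were not listed after PDS. Their selection made this certain, since the 15 with most mock PETs had at least 14 and no PDS member had more than 11. FAM86B1 to FAM86B2, a pair of near-identical genes on chromosome 8, had 19 PETs in mock and 7 in PDS. On chromosome 14, the anchor with ARHGEF40, TMEM253 and ZNF219 (chr14:21082485-21099561) reached the next one with TMEM253 and ZNF219 (chr14:21101024-21111041) by 19 PETs in mock and 5 in PDS. The anchor with CARMIL3, CPNE6 and the retinal transcription factor gene NRL reached that with NRL and PCK2, which encodes the mitochondrial form of a gluconeogenic enzyme, by 18 PETs and 6. Each of these was lower in the PDS list but still listed. So was TGM1 to the anchor with TGM1 and RABGGTA (15 and 3 PETs). The anchor with CCDC57 and SLC16A3 to that with SLC16A3 and CSNK1D had 15 and 7. DPEP1 to the anchor with DPEP1 and CHMP1A had 14 and 5. Where a gene is at both anchors, such a loop may join starts of that gene alone. On chromosome 20, DNAJC5, which encodes a chaperone of synaptic vesicles, was looped to its neighbour UCKL1, a uridine-cytidine kinase gene, by 16 PETs in mock and 10 in PDS (chr20:63906263-63925261 to chr20:63926304-63952921). The canonical starts of both genes lay outside these anchors, which met starts of other transcripts. UCKL1 to the anchor with UCKL1 and ZNF512B had 16 and 3 PETs. DNAJC5 and TPD52L2 to DNAJC5 had 18 and 7. These 3 loops share anchors, so they are not independent measurements.

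Other strong members of the mock list were not listed after PDS, which allows them up to 2 PETs there. The anchor with LYPD2 and SLURP1 to that with LYNX1 and SLURP2, genes of small secreted or membrane-bound proteins of the Ly6 family, had 17 mock PETs. TNS1, which encodes the focal adhesion protein tensin 1, to the anchor with TNS1 and RUFY4 had 15 (chr2:218004454-218024116 to chr2:218025652-218037844). The anchor with SOX18, a transcription factor gene of vessel development, and TCEA2, an elongation factor gene, to TCEA2 had 15. ADSS1 to the anchor with ADSS1 and SIVA1, and NHERF1 with RAB37 to NHERF1, each had 14. SLC22A25 to SLC22A10, members of an organic anion transporter family, had 12. CPNE1 to the anchor with CPNE1 and RBM12 also had 12. All of these spanned less than 30 kb. Beside them, RABGGTA with TGM1 to DHRS1 and NOP9 (11 PETs) and TINF2 to TGM1 (10 PETs) were missing from the PDS list. So were the interferon-induced genes IFITM1 and IFITM2 to IFITM3 (11 PETs), whose anchors share sequence (16.7% by the measure given below).

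A few members had more PETs after PDS. The loop with most PETs in the PDS list joined SAMD14 to PPP1R9B, which encodes the actin-binding scaffold neurabin-2 (chr17:50128812-50135023 to chr17:50137353-50155546). It had 7 PETs in mock and 11 in PDS. TSPOAP1 to RNF43, which encodes a ubiquitin ligase that restrains Wnt signalling, had 4 in mock and 10 in PDS. PSMB11 to CDH24 and FAM177A1 to PPP2R3C each had 7 and 8. Among the others with most PETs after PDS, CNP to DNAJC7 had 12 in mock and 9 in PDS, the anchor with LKAAEAR1, OPRL1 and RGS19 to that with MYT1 and NPBWR2 had 10 and 9, the phosphate transporter family genes SLC17A3 to SLC17A2 had 10 and 8, and ARHGAP27 to PLEKHM1 had 9 and 8. Single loops of this size have little precision, and no test between conditions was possible. A total of 601 members were in the PDS list alone, of which 483 had 3 PETs and 32 had 5 or more. The anchor with RAD51C, a homologous recombination gene, and TEX14 to the adjacent RAD51C anchor had 9 PETs in PDS. TRIM11 to RNF187 had 8, and SLC22A5, which encodes the carnitine transporter, to the interferon regulatory factor gene IRF1 had 7. CLCC1 to the anchor with CLCC1 and AKNAD1, and the metallothionein genes MT1F to MT1G and MT1H, each had 6.

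Members whose anchors share sequence were set apart, since reads from near-identical copies cannot always be placed. The distinct 31-base sequences of both anchors were compared, and those in common were divided by the number in the anchor with fewer. This share was at least 10% in 48 of 5642 members. It was so in 12 of the 82 mock members with 10 or more PETs (14.6%, 8.57 to 23.9) and in 0.665% (0.474 to 0.933) of those with fewer. Examples are FAM86B1 to FAM86B2 (84.3% of 31-base sequences in common), POTEF to POTEE (76.8%, 1082 kb apart, 11 and 5 PETs) and ARHGAP11B to ARHGAP11A (66.3%, 1989 kb apart, 14 and 4 PETs). The longest members with at least 5 mock PETs were this last loop and the pair from CCDC74B to CCDC74A at 1398 and 1391 kb, with 45.4% and 50.3% in common, which had 8 mock PETs each and 0 and 4 in PDS. Others were the pancreatic elastase genes CELA3B to CELA3A (45.4%, 15 and 4 PETs) and the acyl-CoA synthetase genes ACSM2A to ACSM2B (40.6%, 11 and 4 PETs). Of 45 such members in the mock list, 22 were also in the PDS list (48.9%, 35.0 to 63.0), against 10.4% (9.57 to 11.3) of the other 4996. At equal mock PETs and distance they were listed again 2.05 times (1.47 to 2.85) as often as the other members. Without them the PDS/mock ratio was 0.224 (0.210 to 0.239). Their part in the results was not tested further.

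The members covered a large part of the genes. They had 6445 genes at their anchors in the mock list, 32.2% of the 20046 protein-coding genes, and 2213 (11.0%) in the PDS list, with 1780 in both. Most members, 4071 in mock (80.8%) and 905 in PDS (79.2%), had no gene at both anchors, and 2693 and 618 had exactly 1 gene at each. Anchors were wide (median of the mean anchor width 8482 bp in mock), and only 2295 of the 5642 members (40.7%) had canonical starts of different genes at both anchors. The rest needed a start of another transcript. This held for several loops named here. For MMACHC, AKR1A1, FAM177A1, PPP2R3C, DNAJC7, UQCRC2, PLEKHM1, DHX38, SLC22A5, IRF1 and SULT1A1, among others, the canonical start lay more than 1 kb outside the named anchor. The same held for SLC22A10, NRL, ACSM2A, ACSM2B and SLC17A3. It also held for DNAJC5 and UCKL1 in the loop joining them, and for TGM1 in its loop with TINF2. The labelled cell type could be checked only by which promoters were looped. A loop of any kind was seen at the promoters of 15 of 16 hepatocyte marker genes in mock and 12 of 16 in PDS. It was seen at 9 and 5 of 15 marker genes of other cell types, and at 59.8% and 28.7% of all protein-coding genes.

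Gene pairs were mostly close in gene order. Each pair of different genes joined by a member was counted once, giving 6847 pairs in mock and 1693 in PDS, of which 1000 were in both. That is 14.6% (13.8 to 15.5) of the mock pairs and 59.1% (56.7 to 61.4) of the PDS pairs. By the order of canonical start sites, with readthrough genes left out, neighbouring genes made up 45.1% (43.9 to 46.3) of 6302 mock pairs and 49.2% (46.7 to 51.6) of 1570 PDS pairs. Another 40.8% and 37.5% had 1 to 3 genes between them, and 2.65% and 2.87% had 10 or more. The mock list joined 14.7% of the 19371 neighbouring pairs of the annotation. Among members with 1 gene at each anchor, 12.4% (10.9 to 14.1) of 1731 mock loops between neighbours were also in the PDS list, against 4.15% (3.05 to 5.62) of 940 loops that skipped a gene. The loops that skipped a gene were longer (median 94.3 kb against 26.7 kb) and had fewer PETs (mean 3.49 against 3.93). At equal PETs and distance classes, loops between neighbours were still listed again 1.77 times (1.27 to 2.47) as often.

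Midpoints of both anchors lay a median of 32323 bp (30992 to 33790) apart in mock and 27630 bp (25148 to 30264) in PDS. Promoter-distal loops had medians of 19697 and 18983 bp. By distance, the PDS/mock ratio of members was 0.201 (0.166 to 0.245) for loops of 5 to 10 kb and 0.266 (0.235 to 0.301) for loops of 10 to 20 kb. Loops of 20 to 50 kb had a ratio of 0.233 (0.207 to 0.263), those of 50 to 200 kb one of 0.191 (0.168 to 0.216), and those above 200 kb one of 0.262 (0.209 to 0.329). Promoter-distal loops had ratios of 0.231, 0.288, 0.261, 0.230 and 0.252 in the same classes. In the mock list, 362 members spanned over 200 kb. Of the 30 with 5 or more PETs, 6 had at least 10% of 31-base sequences in common.

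Orientation of the pairs depended on which start sites counted as promoters. Pairs were called divergent when their start sites faced away from each other, convergent when they faced towards each other, and otherwise same direction. Over all distances, 51.0% of mock pairs ran in the same direction, 25.6% were divergent and 23.3% convergent. All annotated pairs within 2 Mb had 50.4%, 24.8% and 24.8%. In PDS the shares were 51.2%, 24.5% and 24.3%. Most annotated pairs lay over 200 kb apart, unlike the looped pairs, so pairs were also compared by the distance between canonical starts. Under 5 kb the mock list joined 22.8% of annotated divergent and 15.8% of convergent pairs. At 5 to 20 kb the ratio of the convergent over the divergent share was 0.989 (0.863 to 1.13) in mock and 0.883 (0.631 to 1.23) in PDS. At 50 to 200 kb, the mock list joined 5.61% (5.22 to 6.02) of annotated convergent pairs and 3.39% (3.09 to 3.72) of divergent pairs, a ratio of 1.65 (1.47 to 1.86). The PDS list joined 1.29% and 0.766%, a ratio of 1.68 (1.31 to 2.16). At 20 to 50 kb the ratios were 1.42 (1.26 to 1.60) and 1.84 (1.43 to 2.38). With canonical starts alone, the ratio at 50 to 200 kb was 1.01 (0.843 to 1.22) in mock and 0.694 (0.417 to 1.15) in PDS. At 20 to 50 kb it was 1.17 (0.995 to 1.38) in mock and 1.81 (1.25 to 2.62) in PDS. The higher share of convergent pairs at 50 to 200 kb was thus seen only when starts of other transcripts were counted.

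**Figure D4:**
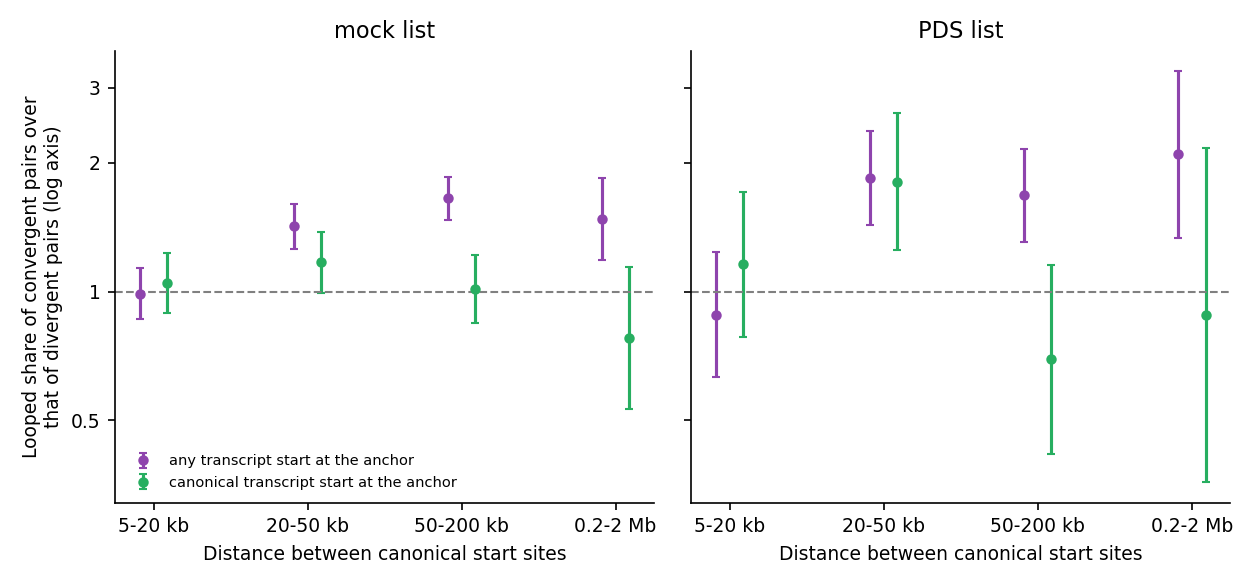
Share of annotated convergent gene pairs joined by a member over that of divergent pairs (log axis), by distance between canonical start sites, in the mock (left) and PDS (right) lists with 95% intervals. With any transcript start the ratio at 50 to 200 kb was 1.65 in mock, and with canonical starts alone it was 1.01, on the dashed line of equal shares.

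Within members with 1 gene at each anchor, the 3 orientations had overlapping PDS/mock ratios. They were 0.234 (0.207 to 0.264) for same direction, 0.208 (0.172 to 0.250) for divergent and 0.241 (0.204 to 0.286) for convergent loops. The share listed again was 9.29%, 9.06% and 10.2%, with overlapping intervals. Pairs of genes whose symbols share a stem, such as ACOT1 and ACOT2, made up 5.32% of mock pairs and 5.14% of PDS pairs. At 50 to 200 kb they were 3.84% (3.14 to 4.68) of mock pairs, where 9.86% of all annotated pairs share a stem.

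G4 motifs were common in the anchors of members in both lists. Both anchors held a motif in 66.5% (65.2 to 67.8) of mock members and 64.9% (62.1 to 67.6) of PDS members. The shares were 36.4% and 38.9% of promoter-distal loops, and 24.9% and 26.0% of loops with no promoter anchor. Anchors of members were also richer in G and C (median 51.4% in mock, against 44.9% for promoter-distal loops). In members with anchors of mean width under 6 kb, both held a motif in 54.3% (51.5 to 57.2) of mock members and 22.3% (21.3 to 23.4) of promoter-distal loops. Member anchors were wider in the PDS list (median 9742 bp, against 8482 bp in mock). For widths under 6 kb, 6 to 10 kb and 10 kb or more, the shares were 54.3%, 65.0% and 76.1% of mock members. Among PDS members they were lower, at 48.9%, 60.5% and 73.4%, each with an interval that overlapped that of mock. Within 500 bp of the canonical start, 67.1% of the genes at mock members had a motif, against 60.6% of all protein-coding genes. Anchor width was not held equal in the comparisons by number of anchors with a motif that follow. Over all widths, the PDS/mock ratio had overlapping intervals whatever the number of anchors with a motif. It was 0.260 (0.206 to 0.330) for the 334 mock members with none, 0.232 (0.205 to 0.262) with 1 and 0.221 (0.204 to 0.239) with both. At equal PETs and distance, members with a motif in both anchors were listed again 1.10 times (0.931 to 1.31) as often as those with fewer. The PET factor was 0.444 (0.301 to 0.631), 0.450 (0.355 to 0.562) and 0.390 (0.345 to 0.438) for none, 1 and both. A motif is a stretch of sequence and does not show that a G4 was folded.

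Some promoters had many partners, and the mock pairs formed clusters. The number of genes looped to 1 gene was highest for DNAJC5, with 23 partners in mock and 19 in PDS. UCKL1 had 22 and 10, TCEA2 had 21 and 9, and TPD52L2, which encodes a tumour protein D52 family member, had 18 and 9. FNDC11, HELZ2, PTK6 and SRMS, which lie at 1 shared anchor on chromosome 20, each had 12 and 9. On chromosome 9, NPDC1 had 18 and 3, and on chromosome 14, TM9SF1 had 15 in mock and 0 in PDS. Of the 535 genes with 5 or more mock partners, 216 (40.4%) had no partner in the PDS list, as had 2639 of the 3231 genes with 1 partner (81.7%). Linked pairs joined into 1712 clusters of genes in mock, 91 of them with 10 or more genes, and into 804 in PDS, 6 of them with 10 or more. Clusters were chained from 6847 pairs in mock and 1693 in PDS, and a loop with several genes at an anchor adds several pairs. Cluster sizes were not compared at equal numbers of pairs.

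The largest mock clusters differed in what was left after PDS. The largest, around TM9SF1, held 91 genes with start sites at chr14:20999293-24442776, joined by 242 pairs in mock and 79 in PDS. A total of 58 of its genes had a PDS pair, split over 11 clusters of at most 16 of its genes. The cluster around DNAJC5 at the end of the long arm of chromosome 20 (chr20:62926505-64255748) held 44 genes, joined by 185 pairs in mock and 97 in PDS, and 33 of its genes were in 1 PDS cluster. The cluster around NPDC1 (chr9:136662916-137277726) held 45 genes, joined by 135 pairs in mock and 42 in PDS. The cluster around SLC44A4 in the major histocompatibility complex (chr6:31615234-32224067) also held 45 genes, joined by 111 pairs in mock and 4 in PDS. Pairs of 1 cluster share anchors and are not independent, and no test was made between clusters. Chromosome 6 as a whole had 267 mock and 54 PDS members, a ratio of 0.202 (0.151 to 0.271).

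Among 7 gene lists, clustered histone genes had the fewest members left for their number. These replication-dependent genes lie close together, mostly on chromosome 6, and encode the core and linker histones. They had 28 members with 121 PETs in mock and 1 member with 3 PETs in PDS, a ratio of 0.0357 (0.00615 to 0.207), beside 0.227 for all members. That interval includes the ratio of all members of chromosome 6, 0.202. Many of these loops share anchors, and the interval counts them as independent. In 22 of the 28 both anchors held a gene of the list. H4C11 to H4C12 had 10 mock PETs (11.0% of 31-base sequences in common), the anchor with H2AC6 and H2BC4 to that with H1-4 and H2BC5 had 9, and the anchor with H2AC7, H2BC7 and H3C4 to H4C5 had 7. None of these 3 was listed after PDS. The loop that was listed in both joined H4C3 to H2AC6 and H2BC4, with 6 and 3 PETs.

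Zinc finger genes were taken by symbol (ZNF, ZSCAN, ZKSCAN or ZFP and a number), and many of them encode transcription factors. They had 160 mock members and 48 PDS members, a ratio of 0.300 (0.218 to 0.414). ZNF28 to the anchor with ZNF28 and ZNF468 had 14 and 8 PETs, with 31.2% of 31-base sequences in common. Cytosolic ribosomal protein genes had 73 and 14 members (0.192, 0.109 to 0.337). RPS29 with LRR1 to RPL36AL with MGAT2 had 9 mock PETs and RPL38 to TTYH2 had 8, both not listed after PDS. RPL7A with the SURF genes to STKLD1 and SURF4 had 8 and 6. Nuclear genes of the respiratory chain had 68 and 11 members (0.162, 0.0864 to 0.303). UQCRC2, which encodes a core subunit of complex III, to PDZD9 had 10 and 5 PETs. NDUFB1 to the anchor with NDUFB1 and CPSF2, and ATP5F1D with MIDN to CIRBP, had 9 mock PETs each and were not listed after PDS.

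The liver genes were read from 3 lists. Plasma protein genes had 38 mock and 10 PDS members, a ratio of 0.263 (0.133 to 0.521), and 4 were in both. ALB and AFP were joined by 3 loops, with 11, 6 and 3 PETs in mock, and after PDS the second had 4 and the others were not listed. The haptoglobin genes HP and HPR to the helicase gene DHX38 had 9 and 4 PETs, and the coagulation factor genes F7 and F10 to a second F10 anchor had 8 and were not listed after PDS. AHSG to FETUB, which encode the related fetuins A and B, had 6 and 4. Metabolic and detoxification enzyme genes had 42 and 9 members (0.214, 0.106 to 0.434). Among them, MMACHC to the aldo-keto reductase gene AKR1A1 had 8 and 3 PETs. AKR1A1 to NASP had 7 and SULT1A1 to SGF29 had 5, both not listed after PDS. At MMACHC, AKR1A1 and SULT1A1 the anchors met starts of transcripts other than the canonical one. Hepatocyte transcription factor genes had 12 and 2 members (0.167, 0.0418 to 0.665). Of these, R3HDML to HNF4A, a master regulator of hepatocyte genes, had 7 mock PETs and was not listed after PDS, GDAP1L1 to HNF4A had 5 and 3, and OSER1 to HNF4A had 4 and was not listed. Except for the histone genes, the interval of each list included the ratio of all members.

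**Figure D5:**
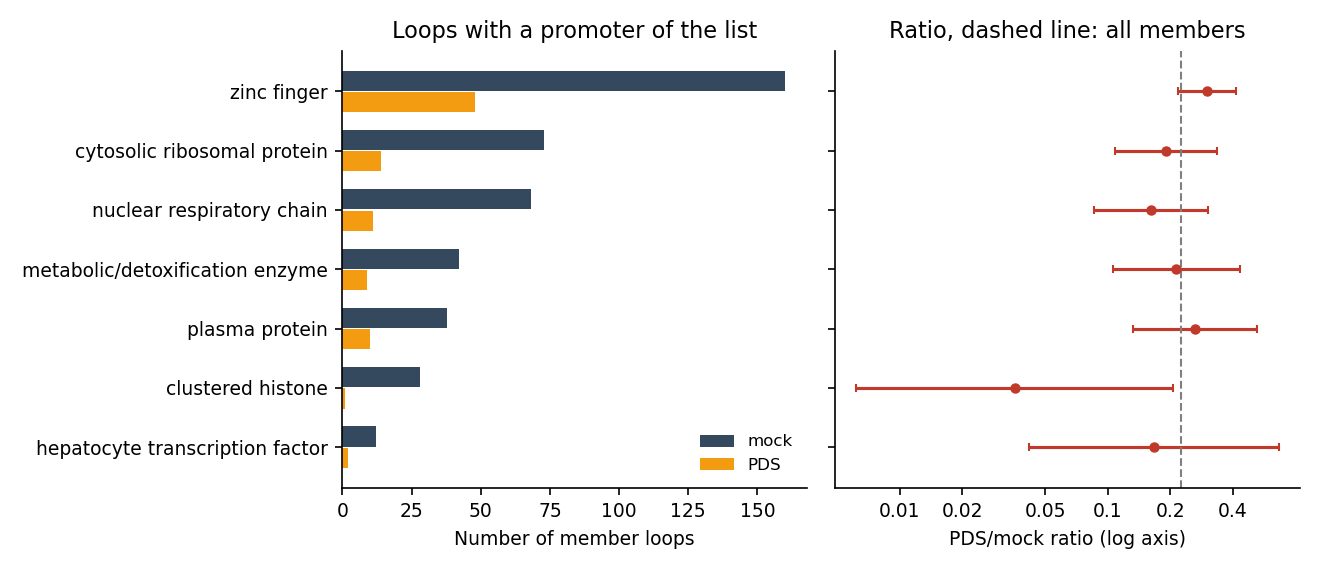
Number of members with a promoter of each gene list in the mock and PDS lists (left) and their PDS/mock ratio with 95% intervals on a log axis (right), where the dashed line marks the ratio of all members, 0.227. The interval of the clustered histone genes, 0.00615 to 0.207, lies below the line, and those of the other lists include it. Loops of a list can share anchors, and the intervals cover counting error only.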

How the data were processed

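The authors ran HiC-Pro version 3.1.0 on the reads with GRCh38 as the reference, per the labels and the study's methods, with duplicate pairs removed. The tool that listed the loops and the way the 2 replicates of a condition were combined are not given in the sources used here. The deposited values are whole-number counts of PETs per loop, not scaled, with a minimum of 3. All 81742 anchors began and ended at MboI sites of GRCh38.

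Both lists were read whole, and loops were matched by identical anchors. Start sites came from GENCODE 44 and promoter sequences from RefSeq. Intervals of ratios were derived from Wilson bounds on the part that PDS holds of both lists, shares have Wilson intervals, and the PET factor has a likelihood interval, all at 95%. Mantel-Haenszel ratios used mock PETs (3, 4, 5, 6 to 9, 10 or more) by distance class (bounds 10, 20, 50 and 200 kb). The loops named were, by rule, the 15 with most mock PETs, the 10 with most PDS PETs, the 10 mock and 5 PDS loops with most PETs among those absent from the other list, the 3 longest with at least 5 mock PETs, the 5 genes with most partners and up to 3 loops per gene list. Other named loops and genes were chosen after their values were seen. The members and gene lists were chosen with earlier results of these data known. Statistics were tested on simulated data. The software was scipy 1.17.1, pysam 0.24.0, pandas 2.3.3, numpy 2.4.6 and matplotlib 3.10.9 under Python 3.11.15.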

Additional observations from a re-analysis of the deposited data

How the results depend on the processing

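No paired analysis was possible because both replicates of a condition were combined in 1 list, and leaving out each replicate was not run for the same reason. A total of 7 results were recomputed under alternatives, 75 values in all. Of these, 41 stayed within the main interval or, for the ratio of shares listed again, on the same side of 1. The share listed again against promoter-distal loops, 1.01, had an interval that included 1, and its direction changed in 9 alternatives: 0.993 with the TSS base itself in the anchor, 0.956 with canonical transcripts, 0.999 with no gene at both anchors, 0.915 and 0.815 at a minimum of 4 and 5 PETs, 0.933 (0.884 to 0.985, excluding 1) with anchors extended by 5 kb, 0.972 with strata of PETs alone, 0.951 against all other loops, and 0.992 without loops whose anchors share sequence, the last chosen after seeing the data. The PDS/mock ratio was 0.196 with canonical transcripts, 0.156 and 0.113 at a minimum of 4 and 5 PETs, and 0.201 without chromosomes 2, 6, 14, 16, 17 and 20. The share of mock members listed again was 9.68% with no gene at both anchors, 8.09% and 6.13% at 4 and 5 PETs, 8.07% without the 6 chromosomes and 21.9% with anchors extended by 5 kb, where the PET factor was 0.536. The ratio of convergent over divergent pairs at 50 to 200 kb was 1.01 with canonical transcripts, 1.92 and 2.33 at 4 and 5 PETs, and 2.19 with 1 gene at each anchor. The median distance was 42308 bp with no gene at both anchors, 21923 and 17830 bp at 4 and 5 PETs, and 28434 bp without the 6 chromosomes. The share with a G4 motif in both anchors was 69.0% with the TSS base itself, 62.7% with 2.5 kb either side, 79.3% with canonical transcripts, 70.5% and 72.1% at 4 and 5 PETs, 68.5% without the 6 chromosomes and 81.3% with spacers of 1 to 12 bases. The causes were not tested. Depth limits what single members show, since most have 3 PETs and an unlisted one may have 2.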
